A study of Mus musculus with 8 samples.

Results

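This report covers 10 genes of the NRF2 antioxidant response in iNKT cells (invariant natural killer T cells), lymphocytes whose near-uniform T cell receptor recognises lipids on CD1d. They are the regulator genes Nfe2l2 and Keap1 and 8 antioxidant genes that NRF2 is known to regulate. These 10 were chosen by name out of 22549 genes in the table, with earlier results of these data known. RNA was sequenced from iNKT cells of the skin (4 libraries) and of the spleen (4 libraries). All mice, in both tissues, had the genotype CCR10+/EGFP, in which 1 allele at Ccr10 carries EGFP. The labels give no age, no number of animals and no sorting gate, so the p-values measure the spread between libraries, which may be technical. Levels are in CPM, expected counts scaled to a common library total, and means carry the SD over the 4 libraries of a tissue (n = 4). Log2 fold changes, also called log2 differences, are skin over spleen. In bulk libraries, fewer cells with a transcript and less transcript per cell cannot be told apart.

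NRF2, the transcription factor encoded by Nfe2l2, is held at a low level in resting cells by KEAP1, which brings it to a ubiquitin ligase built on CUL3. Oxidants and electrophiles modify cysteines of KEAP1, NRF2 then accumulates, pairs with small MAF proteins and binds antioxidant response elements near its target genes. Its targets make glutathione, keep thioredoxin and peroxiredoxins reduced, and degrade haem and quinones. NRF2 is mainly regulated as a protein, so transcript levels do not measure its activity.

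Library totals ran from 7221498 to 9791973 expected counts in skin and from 7191131 to 9361237 in spleen. Skin libraries held a count for 5302 to 6012 genes and spleen libraries for 6415 to 10094 genes, with the most in spleen replicate 4. Of the genes tested, 26.1% to 32.6% stood at 0 in a skin library and 0.78% to 22.4% in a spleen library. All 8 markers on a T cell and iNKT list had counts in both tissues, with a summed level of 2624 to 3308 CPM in skin and 3546 to 4474 CPM in spleen. Skin libraries also held keratinocyte transcripts: 8 of 10 markers had a count in skin and 3 of 10 in spleen. Their summed level was 273 to 1032 CPM in skin and 0 to 29.5 CPM in spleen, with Dsp at 0 in all 8 libraries. Erythroid markers summed to 111 to 274 CPM in spleen and 0 to 2.12 CPM in skin, and B cell markers to 31.5 to 166 CPM in spleen and 0 in skin. Dendritic and Langerhans cell markers summed to 121 to 228 CPM in skin and 0 to 34.7 CPM in spleen; Xcr1 had counts in all 4 skin libraries, at 80.8 to 159 CPM, and Cd207, Flt3 and Cd209a were at 0 throughout. Fibroblast markers summed to 0 to 168 CPM in skin and 0 in spleen, with Col1a2, Col3a1 and Pdgfra at 0. Macrophage and monocyte markers summed to 0 to 92.8 CPM in skin and 0 to 40.6 CPM in spleen, and all 5 mast cell markers were at 0. The part of these other cell types in the results was not tested.

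The core sequence to which NRF2 binds is commonly written TGACNNNGC. The following stretches show where these letters, or for Srxn1 a variant of them, occur just upstream of described genes. RefSeq windows on build GRCm38.p6, from 250 bases before to 50 bases after a start site, were at hand for 8 of the 10 genes (10 windows, 3 of them for Txnrd1), the others being Hmox1 and Gclc. On either strand, TGACNNNGC was found in the windows of 5 of the 8 genes: Nfe2l2, Gclm, Prdx1, Srxn1 and Txnrd1. The Srxn1 match lies after the start site, in an exon of Srxn1, and is not printed. Of all 32851 such windows, 12.4% held it. The variant TGAGNNNGC was found for Srxn1 and Prdx1 and in 17.6% of all windows. Stretches upstream of a start site are printed on the gene's strand, 5′ to 3′, with the match in capitals. The counts were made on another build (mm9), and these coordinates were not used with them.
Nfe2l2, chr2:75704885-75704913, minus strand, 240 bases before the start, in an exon of E030042O20Rik: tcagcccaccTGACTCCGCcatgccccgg
Txnrd1, chr10:82859084-82859152, plus strand, 92 bases before the second of 3 start sites: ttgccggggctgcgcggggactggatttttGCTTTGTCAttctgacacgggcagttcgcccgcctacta
Prdx1, chr4:116685436-116685504, plus strand, 133 bases before the start: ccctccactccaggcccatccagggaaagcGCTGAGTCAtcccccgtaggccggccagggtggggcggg
Gclm, chr3:122245393-122245461, plus strand, 134 bases before the start: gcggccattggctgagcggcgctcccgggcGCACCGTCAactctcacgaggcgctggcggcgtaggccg
Srxn1, chr2:152105469-152105497, plus strand, 45 bases before the start, the TGAGNNNGC variant: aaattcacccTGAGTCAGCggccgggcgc
In Txnrd1, Prdx1 and Gclm the letters lie on the other strand, so the capitals read GCNNNGTCA. The printed Prdx1 and Srxn1 matches both hold, on the other strand, TGACTCA, which is bound by AP-1 factors. Of all windows 5.20% held this shorter sequence on either strand, and of the described genes those of Prdx1 and Srxn1. As the values below show, genes with a match included Txnrd1, whose values were higher in skin without being called. They also included Srxn1, which had no count in skin and was not tested. Whether a match bears on these levels was not tested. A match is a description of letters and says nothing of binding in these cells.

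**Figure D1:**
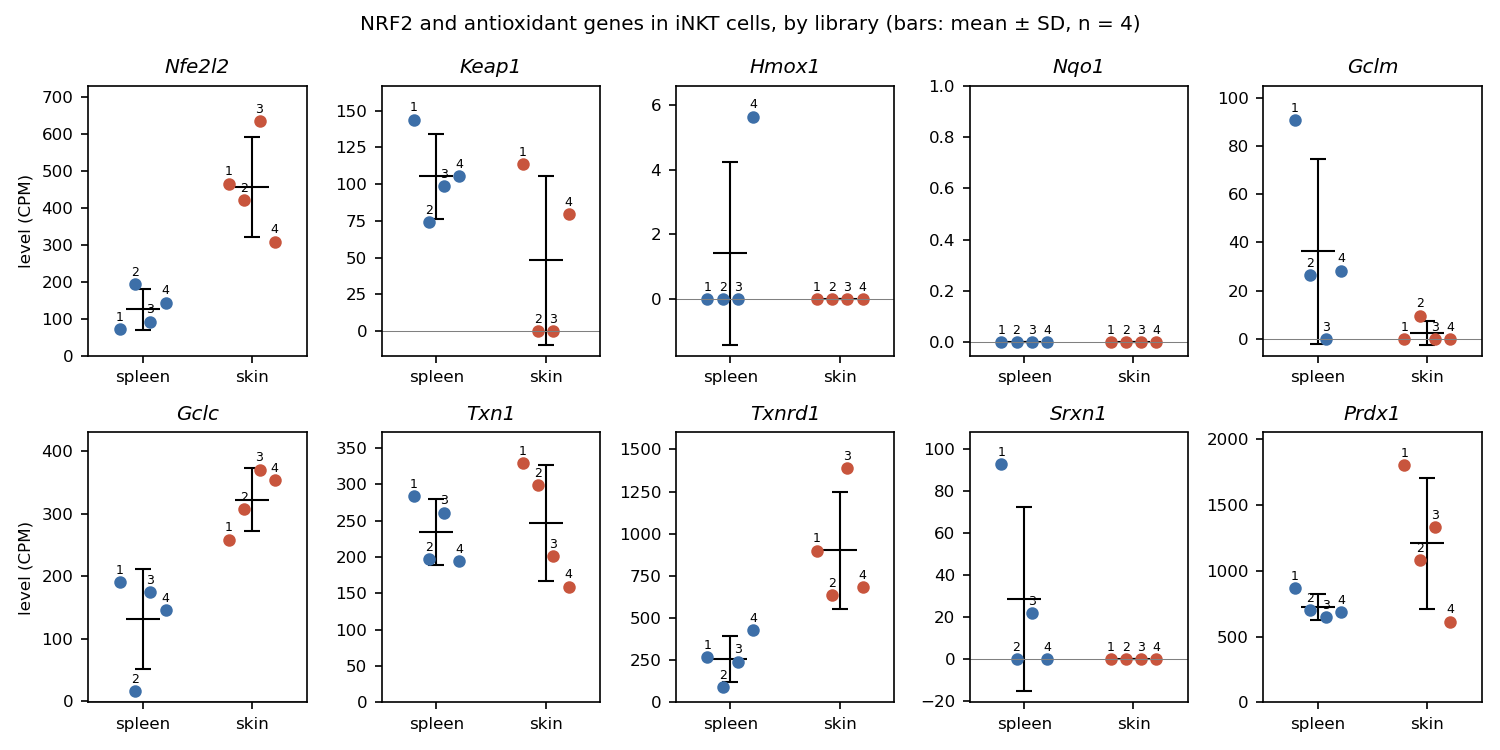
Level of each of the 10 genes (y axis, CPM, linear, separate scale per gene) in spleen and skin iNKT cells. Points are libraries labelled by replicate number and bars are mean ± SD (n = 4). All skin points lie above all spleen points for Nfe2l2, Gclc and Txnrd1, and Nqo1 is at 0 throughout.

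Nfe2l2 was the only one of the 10 genes called, and it was higher in skin. Its level was 465, 421, 635 and 309 CPM in skin replicates 1 to 4 and 72.4, 194, 92.5 and 144 CPM in spleen replicates 1 to 4. Every skin library stood above every spleen library. The mean was 457 ± 135 CPM in skin versus 126 ± 54.4 CPM in spleen, a 3.64-fold ratio. The log2 difference was 1.87 ± 0.42 (SE, 95% interval 0.92 to 2.81), with an edgeR adjusted p = 0.0473 over all genes tested. The call is close to the threshold: it was lost in each of the 8 fits that left out 1 library, where the log2 fold change was 1.62 to 2.14 and the edgeR adjusted p 0.0578 to 0.137. It was also lost with no filter on low counts (edgeR adjusted p = 0.0886) and without the 50 most abundant genes (0.0502). With the replicate number added to the fit as a block it was lost too (edgeR adjusted p = 0.275). The call was made by DESeq2 (adjusted p = 0.000599) and limma-voom (adjusted p = 0.0148).

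Keap1, the cytoplasmic inhibitor of NRF2, did not pass the test. It stood at 114, 0.110, 0 and 79.8 CPM in skin replicates 1 to 4 and at 144, 74.1, 98.6 and 105 CPM in spleen replicates 1 to 4. Skin replicates 1 and 4 lay within the range of spleen, while replicate 2 had 1 count and replicate 3 had none. The mean was 48.4 ± 57.5 CPM in skin versus 106 ± 28.9 CPM in spleen. The log2 difference was -1.12 ± 1.99 (SE, 95% interval -5.65 to 3.40; edgeR adjusted p = 0.998), so these libraries show neither a difference nor its absence. Of 727 tested genes with a like mean in the other 3 skin libraries (64.5 CPM, within 1.2-fold), 28.9% stood at 0 in skin replicate 3. No such share was taken for skin replicate 2, and why Keap1 was low in these libraries was not tested.

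The 2 subunits of glutamate-cysteine ligase, which catalyses the rate-limiting step of glutathione synthesis, had different patterns. The catalytic subunit Gclc stood at 259, 307, 371 and 354 CPM in skin replicates 1 to 4 and at 191, 15.8, 174 and 145 CPM in spleen replicates 1 to 4. No skin value fell within the spleen range, and spleen replicate 2 was the lowest. The mean was 323 ± 50.5 CPM in skin versus 131 ± 79.3 CPM in spleen (log2 difference 1.30 ± 0.66, SE; edgeR adjusted p = 0.548, not called).

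Gclm, the modifier subunit that raises the activity of Gclc, had a count in 1 skin library, at 9.68 CPM in replicate 2. In spleen it stood at 90.7, 26.3, 0 and 28.2 CPM in replicates 1 to 4. The values of both tissues include 0 and so overlap. The log2 difference was -3.90 ± 2.94 (SE, 95% interval -10.6 to 2.77; edgeR adjusted p = 0.88). Without skin replicate 2, the only skin library with a count, the fitted value was -11.2 (edgeR adjusted p = 0.184), which depends on the prior count and is no bound. The change in Gclc and that in Gclm were not tested against each other.

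Of the 4 described genes of the thioredoxin system, none was called, and Txnrd1 had the smallest adjusted p of the 3 tested. Txnrd1, which uses NADPH to reduce thioredoxin in the cytosol, stood at 899, 636, 1390 and 682 CPM in skin replicates 1 to 4. It stood at 267, 90.3, 241 and 428 CPM in spleen replicates 1 to 4, and the lowest skin value was above the highest spleen value. The mean was 902 ± 345 CPM in skin versus 257 ± 138 CPM in spleen, a 3.51-fold ratio. The log2 difference was 1.81 ± 0.47 (SE, 95% interval 0.75 to 2.88; edgeR adjusted p = 0.0601, not called). Txnrd1 was called with RLE scaling (edgeR adjusted p = 0.0472), DESeq2 (adjusted p = 0.00192) and limma-voom (adjusted p = 0.0389), and in none of the 8 leave-one-out fits. Eid3 overlaps Txnrd1 on the same strand in the GENCODE annotation. It had 485 and 227 counts in skin replicates 1 and 3, those with the most Txnrd1, and 0 in the other 6 libraries.

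Txn1, which encodes cytosolic thioredoxin, stood at 329, 299, 201 and 159 CPM in skin replicates 1 to 4. It stood at 284, 197, 261 and 195 CPM in spleen replicates 1 to 4, and the tissues overlapped. The log2 difference was 0.08 ± 0.38 (SE; edgeR adjusted p = 0.998), with a sign that turned to -0.08 when library totals alone were used for scaling. Its 95% interval of -0.78 to 0.93 leaves out changes beyond about 2-fold in either direction.

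Prdx1, a peroxiredoxin that removes hydrogen peroxide and is reduced by thioredoxin, stood at 1807, 1083, 1334 and 614 CPM in skin replicates 1 to 4. In spleen replicates 1 to 4 it stood at 871, 703, 649 and 689 CPM. Skin replicates 1 to 3 lay above all spleen values, and skin replicate 4 lay below them all. The mean was 1210 ± 498 CPM in skin versus 728 ± 98.1 CPM in spleen (log2 difference 0.73 ± 0.30, SE; edgeR adjusted p = 0.345, unadjusted p = 0.0403). Without skin replicate 4 the log2 fold change was 0.91 and the edgeR adjusted p 0.0708. Without skin replicate 1 they were 0.44 and 0.575.

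Srxn1, sulfiredoxin, which repairs overoxidised peroxiredoxins, had no count in any skin library. In spleen it stood at 92.7 CPM in replicate 1 and 21.7 CPM in replicate 3, and at 0 in replicates 2 and 4. With counts in 2 libraries only, it did not pass the filter and was not tested. Of tested genes with a like mean in the other 3 spleen libraries (38.1 CPM), 25.9% stood at 0 in spleen replicate 2 and 0.415% in spleen replicate 4. Those genes had passed the filter that left Srxn1 out, which limits how many of them can stand at 0. The shares therefore do not show whether the 0 values of Srxn1 are unusual.

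The enzymes most often read as NRF2 targets, Hmox1 and Nqo1, were at or near 0. Hmox1, haem oxygenase 1, had 38 counts (5.65 CPM) in spleen replicate 4 and 0 in the other 7 libraries. Nqo1, which reduces quinones, had 0 counts in all 8 libraries. A count of 0 allows up to 3 counts, or 0.292 to 0.454 CPM depending on the library. These limits cover counting error only, since reads carry no molecular identifiers and transcripts can be lost before sequencing.

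Of the 10 genes, 7 passed the filter on low counts and 3 (Hmox1, Nqo1 and Srxn1) did not. Of the 7, 1 was higher in skin by edgeR's quasi-likelihood test, beside 1.85% of all 6920 genes tested. None was lower, beside 3.58% of all genes, with 0 also at an unadjusted p under 0.05 (beside 7.33% of all genes), by DESeq2 (6.46%) and by limma-voom (7.23%). All skin values were above all spleen values for 3 of the 7, beside 6.11% of genes tested, and below them for 0, beside 13.4%. The log2 fold change was above 0 for 5 and below 0 for 2, with a median of 0.73. The median over all genes tested was -0.29, and -0.44 with library totals alone. The filter left Hmox1 and Srxn1, with counts in spleen only, out of these tallies. With no filter their log2 fold changes were -6.51 and -10.8, values that depend on the prior count and are no bounds. The edgeR unadjusted p was then 0.0614 for Hmox1 and 0.0296 for Srxn1, with an edgeR adjusted p = 0.217 for each. A skin library held a count for 5 to 7 of the 10 genes and a spleen library for 7 or 8.

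Within skin, the level of Nfe2l2 had the same order as the keratinocyte markers. Their summed level was 892, 334, 1032 and 273 CPM in skin replicates 1 to 4, so replicate 3 was highest and replicate 4 lowest in both. For Txnrd1 replicates 3 and 1 were also the highest, for Prdx1 replicates 1 and 3, while Gclc was lowest in replicate 1. Single markers differed between the skin libraries: Krt14 had counts in replicates 1 and 3, Krt15 in replicates 1 to 3, Krt5 in replicates 1, 3 and 4, and Krt17 in replicates 3 and 4. Perp and Sfn had counts in all 4 skin libraries, Perp at 76.0 to 198 CPM and Sfn at 35.4 to 165 CPM. Keratinocytes are known to express Nfe2l2, Txnrd1 and Prdx1, and the part of these transcripts in the skin values was not tested.

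**Figure D2:**
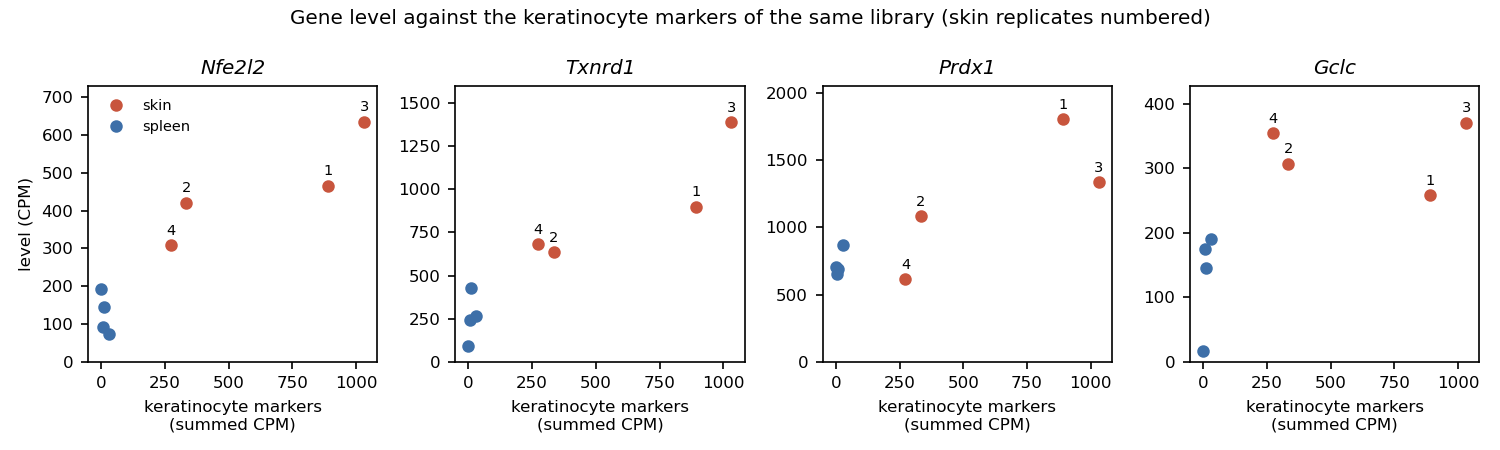
Level of Nfe2l2, Txnrd1, Prdx1 and Gclc (y axes, CPM) against the summed CPM of 10 keratinocyte markers (x axes) in each of the 8 libraries, with skin replicates numbered. Spleen libraries lie between 0 and 29.5 CPM on the x axis, and skin replicates 1 and 3 lie farthest right.

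Around these genes, 60 other genes of the NRF2 network were examined, grouped by function from a list that also holds other antioxidant enzymes. Of the 60, 45 were tested, 9 were higher in skin (beside 1.85% of all genes) and 0 lower (beside 3.58%) by edgeR, with 12 higher and 3 lower at an unadjusted p under 0.05 (beside 5.1% and 7.33% of all genes). DESeq2 called 1 lower (Gstp1, beside 6.46% of all genes) and limma-voom 1 (Prdx3, beside 7.23%). All skin values were above all spleen values for 9 of the 45 (beside 6.11% of all genes) and below them for 4 (beside 13.4%). The median log2 fold change of the 45 was 0.54. The list was chosen with earlier results of these data known, including those of the ferritins and Sqstm1, which are among the 9. The count of 9 fell to 4 to 7 when 1 library was left out.

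By group, the 9 were 4 glutathione genes, 2 thioredoxin and peroxiredoxin genes, 2 haem and iron genes and 1 partner of NRF2. Beside each group's counts stand the shares of all genes tested, 1.85% higher and 3.58% lower. Of the 15 glutathione genes 9 were tested, 4 were higher and 0 lower. Slc3a2, the heavy chain shared by the cystine and large neutral amino acid transporters, rose from 192 ± 104 to 1224 ± 181 CPM (log2 difference 2.67 ± 0.41, SE; edgeR adjusted p = 0.0137; lost without spleen replicate 2, at 0.0566). Its cystine transporter partner Slc7a11 stood at 328 ± 115 CPM in skin versus 226 ± 58.7 CPM in spleen and was not called. Gpx4, which reduces lipid peroxides with glutathione, stood at 701, 710, 821 and 650 CPM in skin replicates 1 to 4 and at 98.0, 217, 167 and 215 CPM in spleen replicates 1 to 4. Every skin value was at least 650 CPM and every spleen value at most 217 CPM. Its log2 difference was 2.05 ± 0.30 (SE; edgeR adjusted p = 0.011; lost without spleen replicate 3, at 0.0539). The Gpx4 call was also lost with the replicate number as a block (edgeR adjusted p = 0.0804). Glutaredoxin, Glrx, rose from 152 ± 67.9 to 671 ± 257 CPM (edgeR adjusted p = 0.0396), a call that held in 2 of the 8 leave-one-out fits. Gpx1, the main cytosolic glutathione peroxidase, rose from 429 ± 17.2 to 996 ± 278 CPM (edgeR adjusted p = 0.0422), a call that held in 1 of them.

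The glutathione transferase Gstp1 went the other way without being called. It stood at 222 ± 53.7 CPM in skin versus 493 ± 74.3 CPM in spleen, with no overlap (log2 difference -1.15 ± 0.29, SE; edgeR adjusted p = 0.0533). It was called lower with a filter of 5 CPM in 4 libraries, with library totals alone and by DESeq2. Gsta4, Mgst1 and Ggt1 had no count in any library.

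Of 13 thioredoxin and peroxiredoxin genes 12 were tested, 2 were higher and 0 lower. Prdx6, a peroxiredoxin that uses glutathione, rose from 533 ± 252 to 1833 ± 540 CPM (log2 difference 1.78 ± 0.38, SE; edgeR adjusted p = 0.0473), a call that held in 1 of the 8 leave-one-out fits. Txnip, which binds and inhibits thioredoxin and is no antioxidant, rose from 266 ± 158 to 960 ± 204 CPM (edgeR adjusted p = 0.0486), a call that held in none of them. The mitochondrial peroxiredoxin Prdx3 stood at 0 in skin replicates 1, 2 and 4 and at 93.4 CPM in replicate 3, against 210 ± 72.0 CPM in spleen. No skin value of Prdx3 reached the spleen range, and it was not called (edgeR adjusted p = 0.887), but was without skin replicate 3 (edgeR adjusted p = 0.0173). The cytosolic Prdx2 stood at 482 ± 274 CPM in skin versus 251 ± 91.0 CPM in spleen and was not called.

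Of 9 partners of NRF2 and KEAP1 7 were tested, 1 was higher and 0 lower. Sqstm1, the autophagy receptor p62, which binds KEAP1 and is itself an NRF2 target, stood at 2595, 1983, 2713 and 1494 CPM in skin replicates 1 to 4. In spleen replicates 1 to 4 it stood at 612, 891, 777 and 535 CPM, below all skin values. Its log2 difference was 1.64 ± 0.25 (SE; edgeR adjusted p = 0.0125; lost without spleen replicate 1, at 0.0511). Within skin it was highest in replicates 3 and 1, as the keratinocyte markers were. The small MAF gene Mafk stood at 413 ± 250 CPM in skin versus 142 ± 59.5 CPM in spleen, with overlap (edgeR adjusted p = 0.222). Rbx1, the RING subunit of the CUL3 ligase, stood at 171 ± 75.4 CPM in skin versus 396 ± 110 CPM in spleen (edgeR adjusted p = 0.153), and its values did not overlap.

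In the haem and iron group 5 of 8 were tested, 2 were higher and 0 lower. They were the ferritin chains, which store iron: Fth1 (8492 ± 744 against 1798 ± 366 CPM) and Ftl1 (5590 ± 1145 against 1987 ± 248 CPM). Ftl1 had a log2 difference of 1.49 ± 0.17 (SE; edgeR adjusted p = 0.00387). Both ferritin calls held in each of the 8 edgeR fits without a library. By limma-voom with quality weights neither was called (adjusted p = 0.958 for Fth1 and 0.0872 for Ftl1). For Fth1 the log2 difference was 2.27 ± 27.8 (SE) by limma-voom and 2.24 ± 0.16 (SE) by edgeR. For Ftl1 the limma-voom value was 1.46 ± 0.43 (SE). The estimates were thus near those of edgeR, with a wider SE. The constitutive haem oxygenase Hmox2 stood at 301, 66.7, 95.5 and 87.3 CPM in skin replicates 1 to 4 and at 0, 0, 35.8 and 90.7 CPM in spleen replicates 1 to 4. It was not called.

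None of the superoxide and peroxide, NADPH or detoxification genes was called by edgeR (4, 5 and 3 tested). At an edgeR unadjusted p under 0.05, 1 was higher (Sod2, beside 5.1% of all genes) and 1 lower (Park7, beside 7.33%). DESeq2 and limma-voom called none of the genes of these groups either. Sod2, the mitochondrial superoxide dismutase, stood at 437 ± 230 CPM in skin versus 163 ± 48.3 CPM in spleen (edgeR adjusted p = 0.15). Park7, which encodes the redox protein DJ-1, stood at 137 ± 40.1 CPM in skin versus 331 ± 114 CPM in spleen (edgeR adjusted p = 0.151). Every skin value of Park7 lay below every spleen value. Taldo1, of the pentose phosphate pathway, stood at 357 ± 170 CPM in skin versus 446 ± 126 CPM in spleen. Ugdh, which makes UDP-glucuronate, stood at 103 ± 88.7 CPM in skin versus 26.5 ± 30.6 CPM in spleen.

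**Figure D3:**
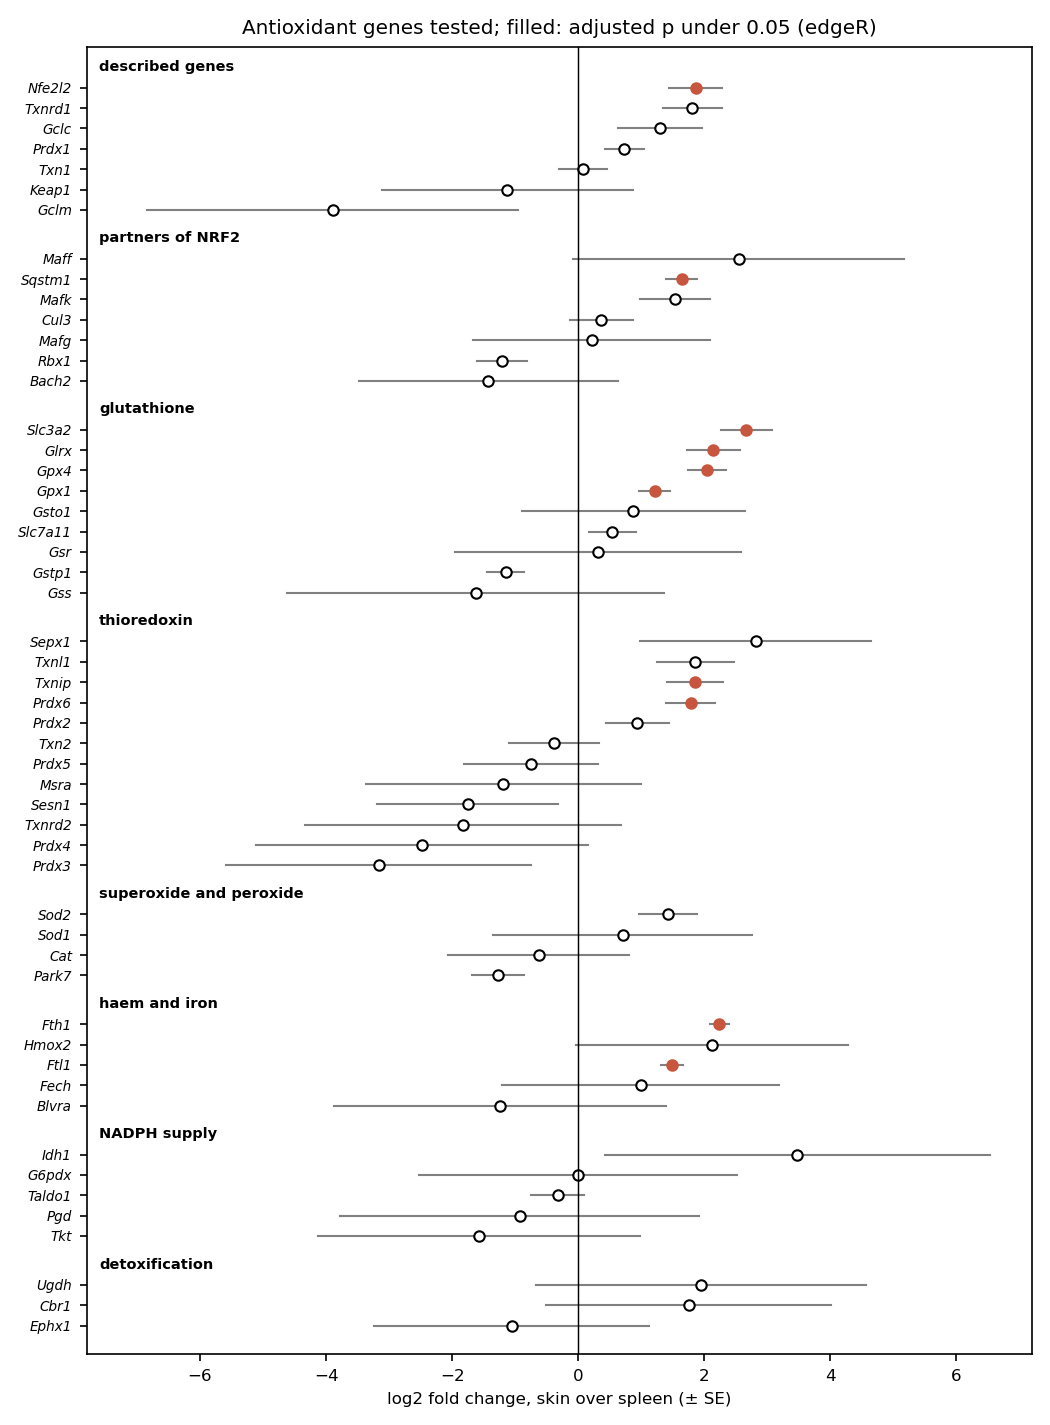
Log2 fold change of skin over spleen (x axis) with its SE for the 7 described genes and 45 other network genes tested, grouped by function. Filled points are the 10 genes with an edgeR adjusted p under 0.05, all to the right of 0, and wide bars belong to genes with libraries at 0.

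The genes whose pattern over the 8 libraries was closest to that of Nfe2l2 were Hsp90aa1, Gpx4 and Arf4. Likeness was the root mean square difference of log2 CPM, each gene centred on its own mean, over 6099 genes of at least 20 CPM. It was 0.21 for Hsp90aa1, a cytosolic chaperone, 0.27 for Gpx4 and 0.30 for the trafficking GTPase Arf4, against a median of 3.44 over all 6099. Hsp90aa1 stood at 1186 ± 382 CPM in skin versus 326 ± 127 CPM in spleen, and Arf4 at 1010 ± 93.9 CPM versus 287 ± 56.1 CPM. They were picked for a pattern like that of Nfe2l2, so these levels are a description with no test.

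**Figure D4:**
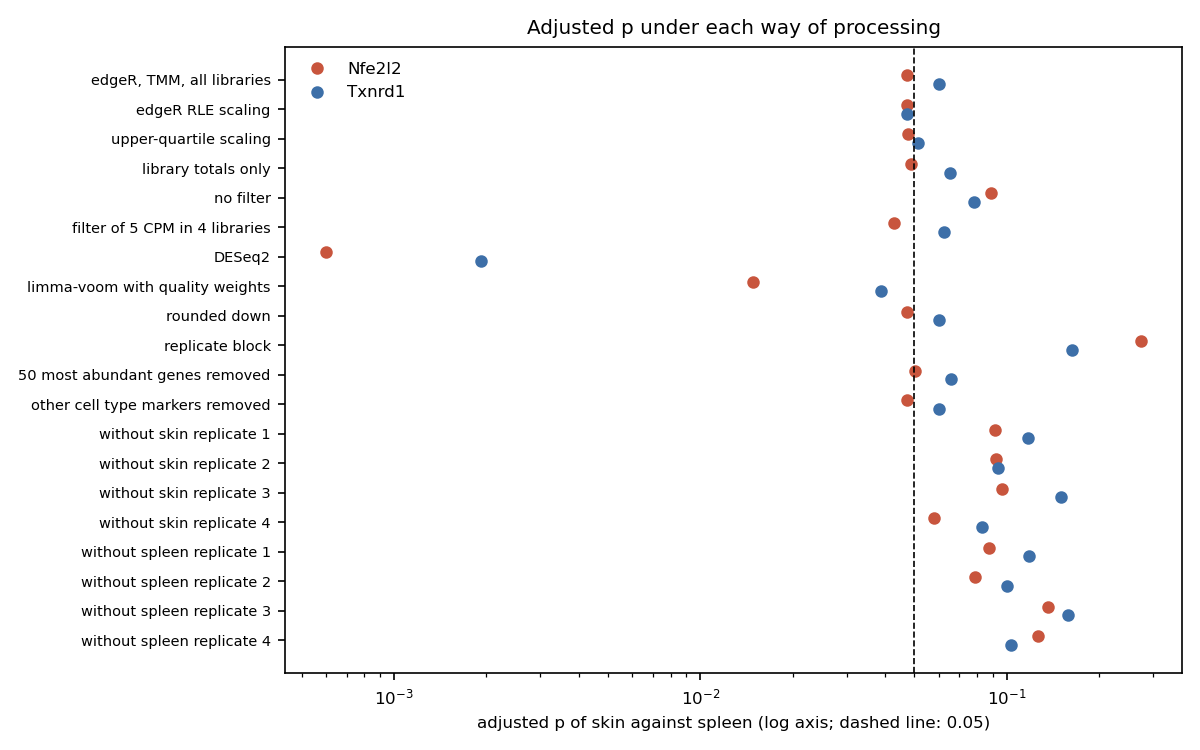
Adjusted p of skin against spleen (x axis, log scale, dashed line at 0.05) for Nfe2l2 and Txnrd1 under each way of processing and with each library left out. All 8 fits without a library lie to the right of the line for both genes, and DESeq2 and limma-voom lie to its left.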

How the data were processed

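Each deposited value is a gene's expected count, estimated with RSEM per the submitters' processing notes, which also name FastQC, DESeq2 1.16.1 and the build mm9 without their role. For the aligner, annotation and filters the sources used here give nothing. Per the labels' protocols, cDNA came from an ultra-low-input kit. It does not mark strand, so overlapping antisense genes (at Keap1, Gclm and Txnrd1) cannot be told apart. Reads from pseudogene copies may also be counted with a gene, whatever the strand.

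Columns were matched to libraries by the descriptions in the labels, and 0 columns were left unused. Expected counts were rounded. edgeR 4.0.16 in R 4.3.3 (filterByExpr, TMM, robust quasi-likelihood fit with tissue as the only term, Benjamini-Hochberg over 6920 genes at 0.05) gave all calls. The common dispersion was 2.94. SE is the log2 fold change divided by the square root of F. Alternatives used limma 3.58.1 and DESeq2 1.42.0. The fit was run on simulated counts. A pass was required only at a dispersion far below that of these data, so it is no check at their spread. No library repeated another (smallest chi-square per degree of freedom 112).

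The genes and lists were chosen with earlier results of these data known. Named were the 10 genes, up to 3 called genes higher and 3 lower per group by adjusted p, the most abundant gene of a group without calls, and the 3 genes most like Nfe2l2. Gpx1, Gstp1, Prdx2, Prdx3, Mafk, Rbx1, Park7, Hmox2, Slc7a11, the genes with no count, Eid3, Xcr1 and other single cell type markers were named after their values were seen. One list symbol matched no row.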

Additional observations from a re-analysis of the deposited data

Results flagged for a closer look

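For 5 values, 1 library lay far from the other 3 of its tissue by Dixon's criterion, out of 62 gene and tissue groups examined. Chance alone marks about 1 group in 20 where values are normally distributed, which these CPM need not be. A group with 1 library above 0 and the other 3 at 0 is always marked, as for Hmox1, Gclm and Prdx3. Hmox1 stood at 5.65 CPM in spleen replicate 4 and at 0 in the other spleen libraries. Gclm stood at 9.68 CPM in skin replicate 2 and at 0 in the other skin libraries. Prdx3 stood at 93.4 CPM in skin replicate 3 and at 0 in the other skin libraries. Gstp1 was low in skin replicate 4, at 142 CPM against 240 to 258 CPM in the others. Hmox2 was high in skin replicate 1, at 301 CPM against 66.7 to 95.5 CPM in the others.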

How the results depend on the processing

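The number of calls depended on the processing, and the cause was not tested except where given. With 1 library left out, 47 to 102 genes were higher and 17 to 111 lower over all genes (128 and 248 with all 8), 0 of the 10 described genes and 4 to 7 of the network genes were higher, and 0 to 1 network gene was lower. DESeq2 called 295 higher and 447 lower, 2 described genes (Nfe2l2 and Txnrd1) higher and 1 network gene lower. limma-voom called 207 higher and 500 lower, 2 described genes higher (Nfe2l2 and Txnrd1) and 1 network gene lower. RLE scaling called 146 genes higher and 243 lower over all genes, and 2 described genes higher. With no filter 97 genes were higher and 48 lower over all genes, and 0 described genes were higher. Without the 50 most abundant genes, which include Fth1 and Ftl1, 56 were higher and 48 lower, with 0 described genes and 3 network genes higher. Library totals alone and a filter of 5 CPM in 4 libraries each called 1 network gene lower, beside 303 and 275 genes lower over all genes.

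The direction of Txn1 turned with library totals alone (-0.083) and without skin replicate 1 (-0.12), skin replicate 2 (-0.07), spleen replicate 2 (-0.0087) or spleen replicate 4 (-0.0050), over a range of -0.12 to 0.19 without 1 library. Ugdh turned under limma-voom (-0.55). No other gene of the described set or network that the text names with a test turned under the alternatives in which it was tested. Gclm moved from -3.90 to -11.2 without skin replicate 2, the only skin library with a count, and to -7.13 with the replicate number as a block. Keap1 moved from -1.12 to -4.99 under limma-voom (adjusted p = 0.171) and to -4.97 with the block, and was called in neither.

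Deviations from the tissue mean correlated at 0.0017 to 0.011 between same-numbered skin and spleen libraries. Of the 4 skin libraries, 1 correlated best with its own number. The labels do not say whether same-numbered libraries share animals. With many genes at 0 in single libraries, these correlations cannot decide it. With the replicate number as a block, 36 genes were higher and 14 lower, 0 described genes and 4 network genes were higher.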
